A study of Mus musculus with 53 samples.

Results

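The genes described here are 10 components and immediate targets of the TGF-beta and BMP pathways: the type II receptors Tgfbr2 and Bmpr2, the pseudoreceptor Bambi, the signal transducers Smad1, Smad5 and Smad4, the inhibitory Smad7, and the targets Id1, Id2 and Id3. They were chosen by name, and each has 1 row among the 14833 genes of the deposited table, so all 10 were found. Their levels were read in single T1 pre-HSCs, precursors of haematopoietic stem cells (HSCs) taken by FACS from E11 mouse embryos, out of the aorta-gonad-mesonephros region. KO cells carried the genotype mH19 delta_DMR/+, a deletion of the differentially methylated region upstream of the imprinted H19 gene on 1 allele, and were numbered 1 to 12. The cells called wildtype carried the genotype mH19 flDMR/+, so the controls held the floxed region in place of a deletion, and were numbered 13 to 22. The Cre driver used to make the deletion is not given in the sources used here. Wildtype cell 19 was not used, which left 12 KO and 9 wildtype cells.

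TGF-beta and BMP ligands bring type I and type II receptors together, and the type II receptor activates the type I kinase. BMP receptors then phosphorylate Smad1 and Smad5, TGF-beta receptors phosphorylate Smad2 and Smad3, and either set joins Smad4 and enters the nucleus. The Id genes are classic direct targets of BMP Smads, and their proteins bind E proteins and keep them off DNA. In the embryonic aorta, BMP signalling is known to take part in the emergence of the first HSCs, and TGF-beta signalling in the transition from endothelial to blood fate.

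No label names an embryo, litter or sorting day for a cell. Each genotype therefore counted as 1 sample, cells were not replicates, and differences are given with the SD over cells and with no p-value. Levels are in RPKM, a read count scaled to transcript length and to the cell's mapped reads, so that levels can be compared between genes per length. A gene at 1 RPKM or more in a cell is called detected there. The number of genes detected per cell ran from 1517 to 8408 in KO cells and from 2067 to 5716 in wildtype cells, and the read depth is unknown. H19, the gene next to the deleted region, ran from 0 to 186 RPKM in KO cells and from 231 to 1261 RPKM in wildtype cells, with no overlap. A value of exactly 0 may be a failed estimate, so such a gene is called listed at 0. Fewer transcripts in a cell and less capture of them cannot be told apart.

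Several cells had few of the markers listed for their labelled type. The 11 pre-HSC and endothelial markers were Cdh5, Pecam1, Kit, Procr, Itga2b, Ptprc, Cd34, Kdr, Tek, Esam and Runx1. Not all need be present in a pre-HSC. Of these 11, 6 cells had at most 2 detected, namely KO cells 1, 3, 9 and 11 and wildtype cells 13 and 14. In these 6 cells the summed level of the 11 markers was 3.95 to 105 RPKM, against 229 to 1221 RPKM in the other 15 cells, where 3 to 11 markers were detected. Cd34, an HSC and endothelial surface protein, was listed at 0 in all 6. Ptprc, Tek, an angiopoietin receptor, and Runx1, a master regulator of blood emergence, were detected in none of them. Cd34 and Ptprc were sparse in the other 15 cells too, at 3 and 1 of 8 KO cells and 1 of 7 wildtype cells each. Cdh5, the endothelial cadherin, Pecam1, Kit, Itga2b and Kdr were each detected in 1 of the 6. Procr and Esam were each detected in 3 of the 6, at up to 4.30 and 4.13 RPKM. Of 10 mesenchymal markers, 1 to 7 were detected in the 6 cells and 0 to 3 in the other 15. Their summed level was 11.8 to 2022 RPKM in the 6 cells and 0.0285 to 998 RPKM in the others, so the ranges overlapped. Of 4 erythroid markers in the table at most 2 were detected in a cell. Of 5 macrophage markers in the table at most 2 were detected too, the most frequent being Lyz2, lysozyme, in 6 KO and 6 wildtype cells. The 6 cells with few pre-HSC markers were singled out after their values were seen. They were kept, and results are also given without them.

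By median over all cells, the 3 Id genes stood far above all other members. Id3 and Id1 were each detected in 11 of 12 KO cells and 8 of 9 wildtype cells, a share of 91.7% (exact 95% interval 61.5 to 99.8%) in KO and 88.9% (51.8 to 99.7%) in wildtype cells. Id2 was detected in 8 of 12 KO cells, 66.7% (34.9 to 90.1%), and 7 of 9 wildtype cells, 77.8% (40.0 to 97.2%). These Clopper-Pearson intervals cover counting error only. By median level, Id3 and Id1 were the highest members in both genotypes, in that order in KO and in the reverse order in wildtype cells, and Id2 came next in both.

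The RefSeq annotation of GRCm38.p6 places Id1 on chromosome 2 at 152736251 to 152737410, Id2 on chromosome 12 at 25093799 to 25096092 and Id3 on chromosome 4 at 136143822 to 136145392. The 250 bases before the transcription start of Id3 and Id2, the Id genes with an entry in the RefSeq promoter table of GRCm38.p6, are shown because BMP-activated Smads act on the Id genes through short elements in their regulatory regions. The windows are chr4:136143572-136143821 on the plus strand for Id3 and chr12:25096093-25096342 on the minus strand for Id2. Capitals mark the CAGA box bound by Smads, searched as CAGAC on both strands, and a GC-rich Smad element, searched as GGCGCC.
Id3: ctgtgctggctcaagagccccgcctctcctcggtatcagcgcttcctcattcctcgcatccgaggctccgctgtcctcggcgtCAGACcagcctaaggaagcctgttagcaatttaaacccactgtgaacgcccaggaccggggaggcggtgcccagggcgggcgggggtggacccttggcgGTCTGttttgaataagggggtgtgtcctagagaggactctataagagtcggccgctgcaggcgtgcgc
Id2: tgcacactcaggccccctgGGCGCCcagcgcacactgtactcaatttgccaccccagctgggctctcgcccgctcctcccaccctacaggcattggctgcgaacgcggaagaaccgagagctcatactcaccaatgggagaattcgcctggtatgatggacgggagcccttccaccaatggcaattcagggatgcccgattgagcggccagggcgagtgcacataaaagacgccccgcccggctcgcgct

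In the Id3 window the CAGA box, on either strand, stood at 2 places, with first bases at positions -167 and -68 counted back from the start, and the GC-rich element was not found. In the Id2 window the GC-rich element stood at position -231 and the CAGA box was not found. The CAGA box occurs in 42.2% of 32851 promoter windows of this length and the GC-rich element, a palindrome, in 9.59%. In all, 6 members had an entry in the table. Beside the Id genes, Bmpr2 had the GC-rich element at position -105 and Tgfbr2 the CAGA box at -160. Smad1 had neither. Smad5, which has several annotated starts, had the GC-rich element at -19 of one start and the CAGA box at -21 of another. A longer Smad palindrome, GTCTAGAC, found in 0.167% of all windows, was in none of the members' windows. Matches describe the letters of these windows and not bound sites.

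Id1 ran from 0 over a median of 297 to 1885 RPKM in KO cells, and from 0 over a median of 466 to 1764 RPKM in wildtype cells. The ranges overlapped almost fully, and each genotype had 1 cell in which Id1 was listed at 0, KO cell 10 and wildtype cell 15. The mean log2(RPKM + 1) was 7.66 ± 3.36 in KO cells (SD, n = 12 cells) and 7.15 ± 3.78 in wildtype cells (SD, n = 9 cells), a difference of 0.51. The medians went the other way, with a difference of -0.65 on the same scale, and the difference of means was -0.38 without wildtype cell 15, -0.19 without wildtype cell 17 and 1.21 without KO cell 10.

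Id3 ran from 0 over a median of 576 to 3004 RPKM in KO cells, and from 0.755 over a median of 275 to 2059 RPKM in wildtype cells. Its mean log2(RPKM + 1) was 8.20 ± 3.29 in KO cells against 7.58 ± 3.04 in wildtype cells, and the difference was 0.62. The lowest cells, KO cell 10 at 0 and wildtype cell 20 at 0.755 RPKM, set much of that value. The difference was 1.37 without KO cell 10 and -0.22 without wildtype cell 20.

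Id2 was split between cells at 50.7 RPKM or more and cells near 0, at 2.26 RPKM or less. It ran from 0 over a median of 65.5 to 2461 RPKM in KO cells, and from 0.745 over a median of 225 to 701 RPKM in wildtype cells. Both genotypes held cells of either kind, and Id2 was listed at 0 in 4 KO cells and in 0 wildtype cells. On the log2(RPKM + 1) scale Id2 averaged 4.83 ± 4.35 in KO cells against 5.43 ± 4.10 in wildtype cells, so the means differed by -0.61, far less than either SD. With the difference taken as the ratio of mean RPKM it was 0.50, the opposite sign, KO cell 9 alone being at 2461 RPKM.

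**Figure D1:**
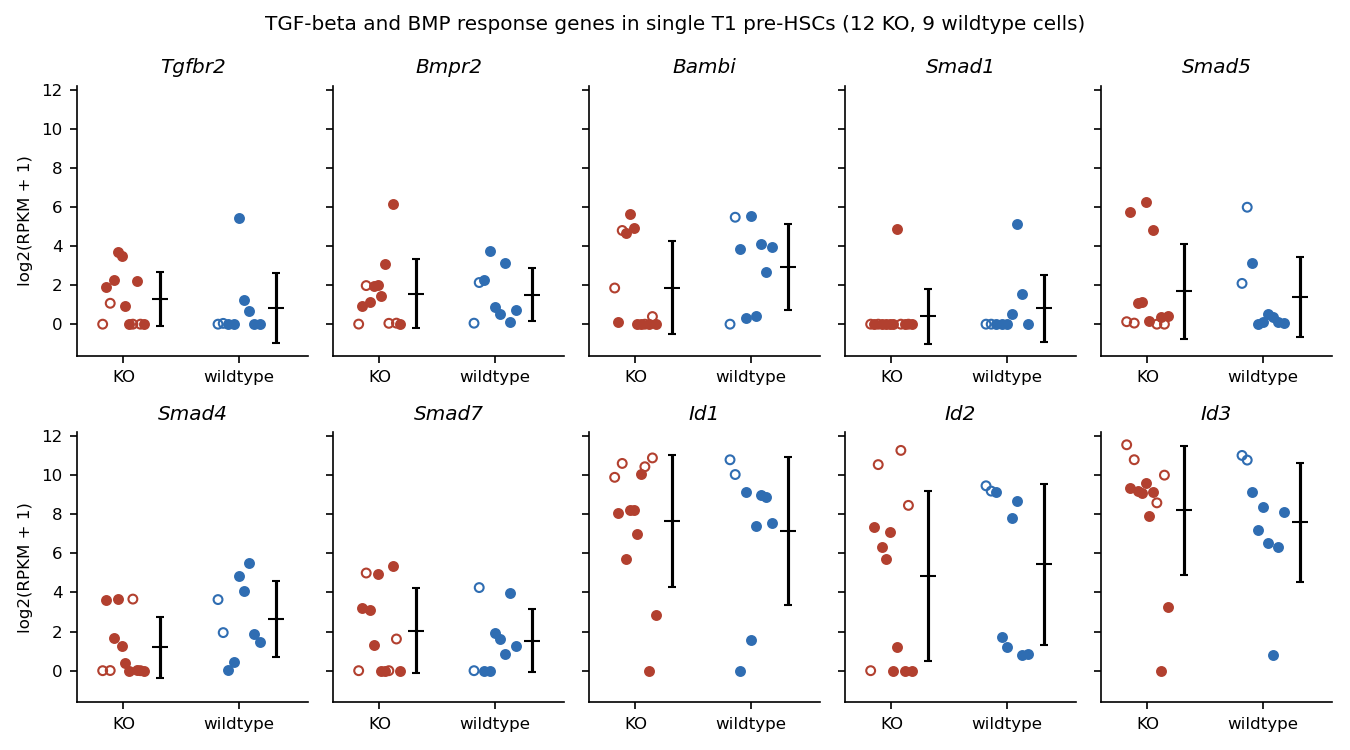
Levels of the 10 genes in each cell on the log2(RPKM + 1) scale, KO cells left and wildtype cells right; filled points are cells with 3 or more of the 11 pre-HSC and endothelial markers, open points cells with at most 2, and bars give the mean and SD over cells. The Id genes reach above 8 in both genotypes, and the points of KO and wildtype cells overlap for every gene.

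Id levels were highest in the cells of few markers. Ranked by the sum of Id1, Id2 and Id3, the first 6 of the 21 cells were exactly those with few pre-HSC and endothelial markers. Among KO cells the Id sum was 4804 RPKM in cell 3, 4221 in cell 9, 3951 in cell 1 and 3258 in cell 11. Among wildtype cells it was 4524 RPKM in cell 13 and 3371 in cell 14. The other 15 cells lay between 0 and 1648 RPKM, with medians of 801 RPKM in the 8 KO cells and 546 RPKM in the 7 wildtype cells.

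Across all 21 cells the Spearman correlation of the Id sum with the summed level of the 11 markers was -0.59, at -0.62 in the 12 KO cells and -0.85 in the 9 wildtype cells. Within the 15 cells that had 3 or more markers it was 0.11, so the relation rests on the cells with few markers. Those cells had 1517 to 4051 detected genes, against 1796 to 8408 in the others. The values of one cell share its library and depth, and the part that cell identity, depth or mesenchymal RNA plays in the Id level was not tested.

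**Figure D2:**
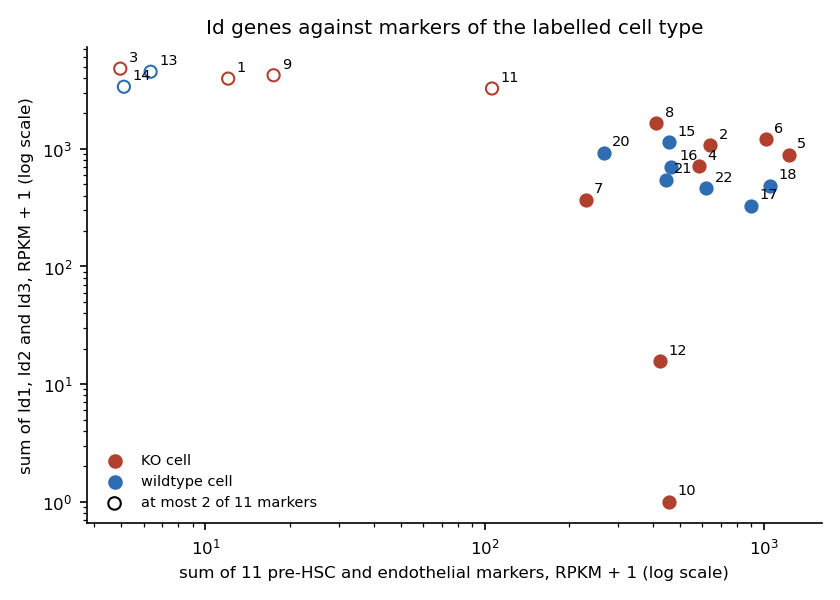
Sum of Id1, Id2 and Id3 against the sum of 11 pre-HSC and endothelial markers, each as RPKM + 1 on a log axis, with 1 point per cell labelled by its number, KO cells in red and wildtype cells in blue. The 6 open points, cells with at most 2 markers detected, lie at the upper left with Id sums of 3258 to 4804 RPKM, and KO cells 12 and 10 lie lowest, at 14.6 and 0 RPKM.

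At the other end, KO cell 10 had all 3 Id genes listed at 0, and KO cell 12 had an Id sum of 14.6 RPKM. Both were rich in markers of the labelled type, with summed levels of 456 and 422 RPKM, and both had few detected genes, 2260 and 1796. The lowest wildtype cell, cell 17, had an Id sum of 328 RPKM. KO cell 10 was also the cell with the highest Bmpr2 and the highest Smad7 of all cells. Without the 6 cells of few markers, the differences of Id1, Id2 and Id3 were 0.048, -0.86 and 0.55 on the log2(RPKM + 1) scale, against 0.51, -0.61 and 0.62 with all cells.

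Among themselves the Id genes were detected together in most cells. Id1 and Id3 were both detected in 18 of 21 cells, each alone in 1, and neither in 1. Over the 21 cells the Spearman correlation of RPKM was 0.56 between Id1 and Id3, 0.49 between Id1 and Id2 and 0.43 between Id2 and Id3. For Id1 and Id3 it was 0.66 in KO cells and 0.20 in wildtype cells. Of all genes compared, Id3 stood 18th in likeness to Id1, and Id1 18th in likeness to Id3. The 5 genes most like Id1 were Cd63-ps (0.72), Gpc3 (0.69), Nup43 (0.66), Cks1brt (0.64) and Gm15976 (0.62). Gpc3 encodes a cell-surface proteoglycan, and Nup43 a subunit of the nuclear pore. The 5 most like Id3 were Ube2h (0.72), Gm12350 (0.69), Cdc123 (0.68), Gm9844 (0.67) and Tmsb10 (0.65). Ube2h encodes a ubiquitin-conjugating enzyme and Tmsb10 an actin-binding thymosin. Cd63-ps is a pseudogene by its name, and rows of this kind can share reads with their parent genes, so its values are uncertain. These correlations are the highest of 3867 genes over 21 cells, are given as a description, and again rest on cells that share depth.

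The receptors were low. Bmpr2, the type II receptor for BMPs, on chromosome 1 at 59764279 to 59878081, was detected in 7 of 12 KO cells, 58.3% (27.7 to 84.8%), and in 4 of 9 wildtype cells, 44.4% (13.7 to 78.8%). Its level ran from 0.00196 over a median of 1.46 to 70.0 RPKM in KO cells, and from 0.0357 over a median of 0.865 to 12.5 RPKM in wildtype cells. It was above 0 in all 21 cells, and apart from KO cell 10, at 70.0 RPKM, the genotypes covered like ranges. Its log2(RPKM + 1) averaged 1.57 ± 1.75 in KO cells against 1.51 ± 1.36 in wildtype cells, which differ by 0.060, the smallest among the members, and its sign turned in 7 of the 21 runs that left out 1 cell.

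Tgfbr2, the type II receptor for TGF-beta, on chromosome 9 at 116087695 to 116175363, was detected in 6 of 12 KO cells, 50.0% (21.1 to 78.9%), and in 2 of 9 wildtype cells, 22.2% (2.81 to 60.0%). Its level ran from 0 over a median of 1.01 to 11.8 RPKM in KO cells, and from 0 over a median of 0 to 42.8 RPKM in wildtype cells. The highest cell was wildtype cell 17, and it was listed at 0 in 5 cells of each genotype. KO cells averaged 1.29 ± 1.39 on the log2(RPKM + 1) scale, against 0.82 ± 1.79 in wildtype cells, with a difference of 0.47, and without wildtype cell 17 the difference was 1.05. As a ratio of mean RPKM on the log2 scale it was -0.64, the opposite sign. All 4 KO cells with more detected genes than any wildtype cell (2, 4, 5 and 6) had Tgfbr2 detected, as did 2 of the other 8 KO cells.

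Bambi, a decoy receptor without a kinase domain that damps both pathways and is itself a BMP and TGF-beta target, was detected in 5 of 12 KO cells, 41.7% (15.2 to 72.3%), and in 6 of 9 wildtype cells, 66.7% (29.9 to 92.5%). Its level ran from 0 over a median of 0.202 to 48.8 RPKM in KO cells, and from 0 over a median of 13.5 to 45.2 RPKM in wildtype cells. The highest cells of the genotypes were nearly level, and the medians lay far apart because 7 of the 12 KO cells were under 1 RPKM. On the log2(RPKM + 1) scale the mean was 1.87 ± 2.39 in KO cells against 2.92 ± 2.19 in wildtype cells, and the means differed by -1.05. The difference was -0.72 without wildtype cell 17, and it was 1 or more in size in 9 of the 21 runs that left out 1 cell. In the 4 KO cells with the most detected genes the difference from all wildtype cells was 0.93, the opposite sign. The values of KO cells 4 and 5, 24.7697 and 48.7697 RPKM, share their last 4 digits, as does no other pair of values within a member (1 of 1192 pairs, 0.0839%, against 0.0116% of pairs in all other genes).

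Smad4, the partner shared by both pathways, had the largest difference. It was detected in 5 of 12 KO cells, 41.7% (15.2 to 72.3%), and in 7 of 9 wildtype cells, 77.8% (40.0 to 97.2%). Its level ran from 0 over a median of 0.168 to 11.7 RPKM in KO cells, and from 0.0244 over a median of 2.86 to 44.4 RPKM in wildtype cells. The 3 highest cells, cells 20, 17 and 18 at 44.4, 27.7 and 15.9 RPKM, were wildtype, and Smad4 was listed at 0 in 4 KO cells and in 0 wildtype cells, but the ranges overlapped. Its log2(RPKM + 1) averaged 1.19 ± 1.57 in KO cells against 2.65 ± 1.94 in wildtype cells, which differ by -1.46, smaller than the SD in either genotype.

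Detection of Smad4 in KO cells went with the number of genes detected. It was detected in all 4 KO cells with more genes than any wildtype cell, in 0 of the 5 KO cells within the wildtype range of gene numbers and in 1 of the 3 KO cells below that range. The difference kept its sign when any 1 cell was left out, with a range of -1.78 to -1.10. It was -1.28 without the 6 cells of few markers, -0.10 when the 4 KO cells with the most genes were set against all wildtype cells, and -0.16 over cells with Xist under 1 RPKM. The last set held 5 KO and 7 wildtype cells. Median Xist was 4.94 RPKM over the 12 KO cells and 0.0462 RPKM over the 9 wildtype cells. The part this plays in the differences was not tested.

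Smad5 and Smad1, the transducers of BMP signals, were detected in few cells. Smad5, on chromosome 13 at 56703010 to 56742378, was detected in 5 of 12 KO cells, 41.7% (15.2 to 72.3%), and in 3 of 9 wildtype cells, 33.3% (7.49 to 70.1%). It ran from 0 over a median of 0.333 to 76.0 RPKM in KO cells, and from 0.00817 over a median of 0.283 to 62.2 RPKM in wildtype cells, so a few high cells stood above many near 0 in both genotypes. KO cells averaged 1.68 ± 2.42 on the log2(RPKM + 1) scale, against 1.38 ± 2.04 in wildtype cells, with a difference of 0.30. In wildtype cells the only detections besides cell 15, at 7.87 RPKM, were cells 13 and 14, both of few markers, and without the 6 such cells the difference was 1.87. It was -0.068 without KO cell 2 and -0.12 without KO cell 6, the highest KO cells.

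Smad1, on chromosome 8 at 79338395 to 79399428, was detected in KO cell 8 at 27.8 RPKM and in wildtype cells 20 and 21 at 34.5 and 1.96 RPKM. That is 1 of 12 KO cells, 8.33% (0.211 to 38.5%), and 2 of 9 wildtype cells, 22.2% (2.81 to 60.0%). It was listed at 0 in 11 KO cells and 6 wildtype cells, and with so few cells no direction is read from its difference of -0.40, which was 0.14 without wildtype cell 20.

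Smad7, the inhibitory Smad that TGF-beta and BMP signals induce and that blocks their receptors, was detected in 7 of 12 KO cells, 58.3% (27.7 to 84.8%), and in 5 of 9 wildtype cells, 55.6% (21.2 to 86.3%). It ran from 0 over a median of 1.78 to 40.4 RPKM in KO cells, and from 0 over a median of 1.38 to 18.0 RPKM in wildtype cells. The 3 highest cells were KO cells 10, 3 and 6 at 40.4, 30.9 and 30.1 RPKM. On the log2(RPKM + 1) scale the mean was 2.04 ± 2.18 in KO cells against 1.54 ± 1.62 in wildtype cells, and the means differed by 0.51, and the sign held when any 1 cell was left out, with a range of 0.20 to 0.84.

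**Figure D3:**
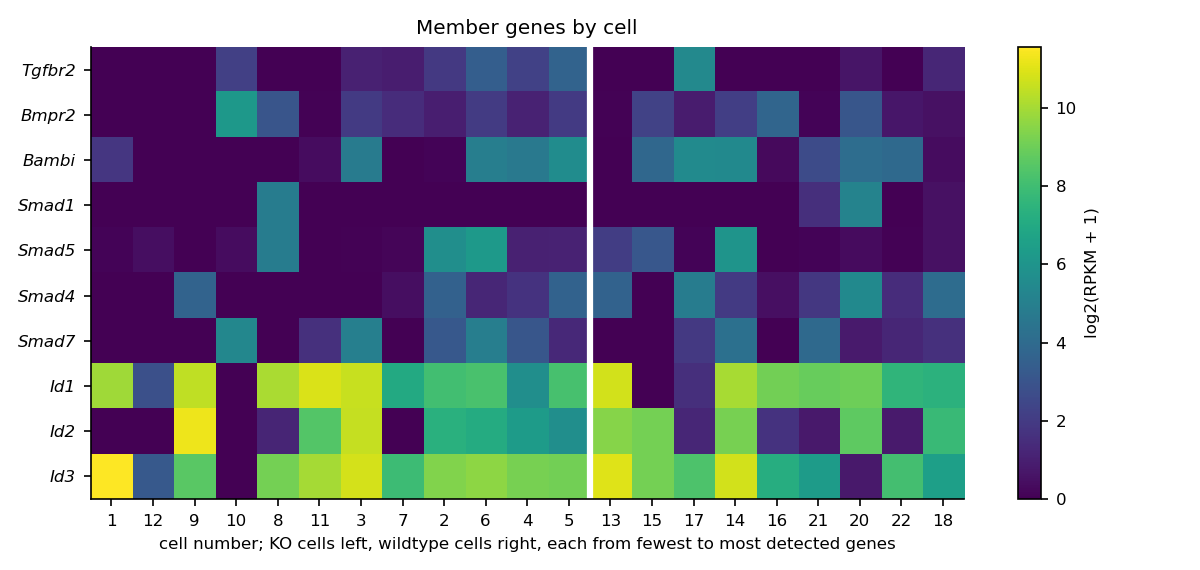
Level of each gene on the log2(RPKM + 1) colour scale in each of 21 cells, KO cells left of the white line and wildtype cells right, each ordered from fewest to most detected genes. The Id rows are bright in most cells of both genotypes, and receptor and Smad rows fill in towards the right of the KO block, where cells 2, 6, 4 and 5 stand.

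Below the Id genes, the order of the members by median in KO cells was Smad7 (1.78 RPKM), Bmpr2 (1.46), Tgfbr2 (1.01), Smad5 (0.333), Bambi (0.202) and Smad4 (0.168), with Smad1 at 0. In wildtype cells it was Bambi (13.5 RPKM), Smad4 (2.86), Smad7 (1.38), Bmpr2 (0.865) and Smad5 (0.283), with Smad1 and Tgfbr2 at 0. Neighbours in either order overlapped in their ranges over cells. The gap between Id2 and the next member, although large by median with all cells, was also bridged by cells with Id2 near 0. Tgfbr2 and Smad7 were detected in the same cells more than separately, 8 cells having both, 4 Smad7 alone, 0 Tgfbr2 alone and 9 neither, with a Spearman correlation of 0.61 over 21 cells.

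The number of these 7 receptor, Bambi and Smad genes detected in a cell followed the number of all genes detected among KO cells, but hardly among wildtype cells. It was 0 to 6 in KO cells, with a median of 3, and 1 to 5 in wildtype cells, also with a median of 3. Its Spearman correlation with genes detected was 0.83 over 12 KO cells and 0.10 over 9 wildtype cells. The KO cells with 6 of 7 detected were cells 4, 5 and 6, and the KO cell with 0 was cell 12. For the level of Id1 the correlation with genes detected was -0.10 in KO and -0.17 in wildtype cells. For Id2 it was 0.27 in KO and -0.53 in wildtype cells, and for Id3 0.10 in KO and -0.77 in wildtype cells. How much of the members' detection gene number accounts for was not tested.

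**Figure D4:**
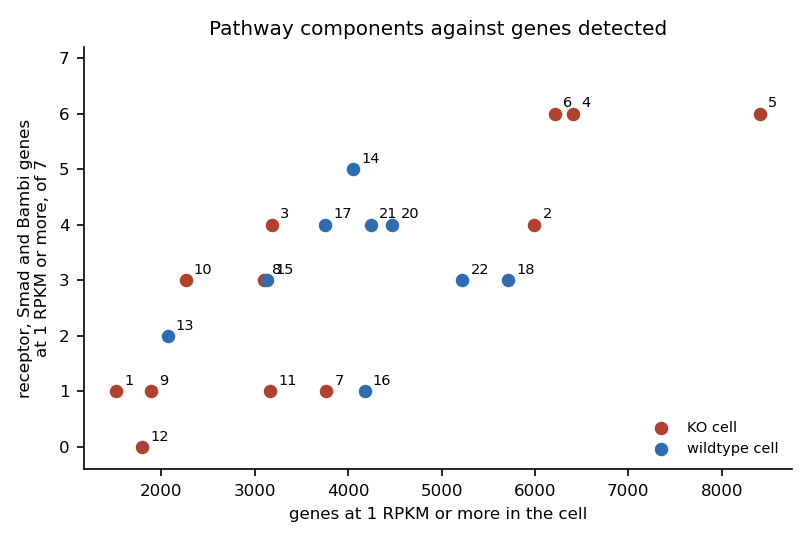
Number of the 7 receptor, Bambi and Smad genes at 1 RPKM or more against the number of all genes at 1 RPKM or more, 1 point per cell labelled by its number, KO cells in red and wildtype cells in blue. KO cells 4, 5 and 6, with 6215 to 8408 genes, have 6 of 7, and KO cells 1, 9 and 12, with fewer genes than any wildtype cell, have 0 or 1.

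Between KO and wildtype cells the members lay in both directions, 6 of the 10 higher and 4 lower in KO cells by any amount. Genes detected in 50% or more of the KO cells, or of the wildtype cells, were compared, which took in 8 members and 3867 genes in all. Tgfbr2 met it with 6 of 12 KO cells, and Smad5, with 5 of 12, and Smad1 did not. Smad4, at 7 of 9, and Bambi, at 6 of 9, met it through wildtype cells alone, with 5 of 12 KO cells each. Tgfbr2 and Bmpr2 met it through KO cells alone. A gene that passes through 1 genotype alone is favoured to lie higher there, so its direction is partly set by this rule. A difference of 1 or more in size on the log2(RPKM + 1) scale was taken as large, by size alone and with no test behind it. Of the 8 members compared, 2 had a large difference, Smad4 and Bambi, a share of 25.0% against 39.4% of all genes compared. Both lay lower in KO cells, where 28.0% of all genes compared had a large difference in that direction, and 0 lay higher, against 11.4% of all. Without the 6 cells of few markers, 9 members were compared and 3 had a large difference, against 42.6% of the 5178 genes then compared. Smad5 lay higher in KO cells, as did 22.2% of those genes, and Bambi and Smad4 lower, as did 20.4%. There Smad5 reached 50% of cells in KO alone, at 5 of 8 against 1 of 7 wildtype cells. Bambi reached it in wildtype alone, and Smad4 in both genotypes.

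The median difference of the 8 was 0.27, against -0.36 for all genes compared, with quartiles of -1.11 and 0.35. Of the 8, 3 lay below 0, against 64.3% of all genes compared. No member had ranges that did not overlap between KO and wildtype cells, as 0.0517% of genes compared did. These values differed with the cells used. In the 4 KO cells with the most genes the median of the members was 1.19, beside 1.28 for all genes then compared. With those 4 KO cells and the 6 cells of few markers left out, which leaves 4 KO and 7 wildtype cells, it was -1.56, beside -1.03.

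**Figure D5:**
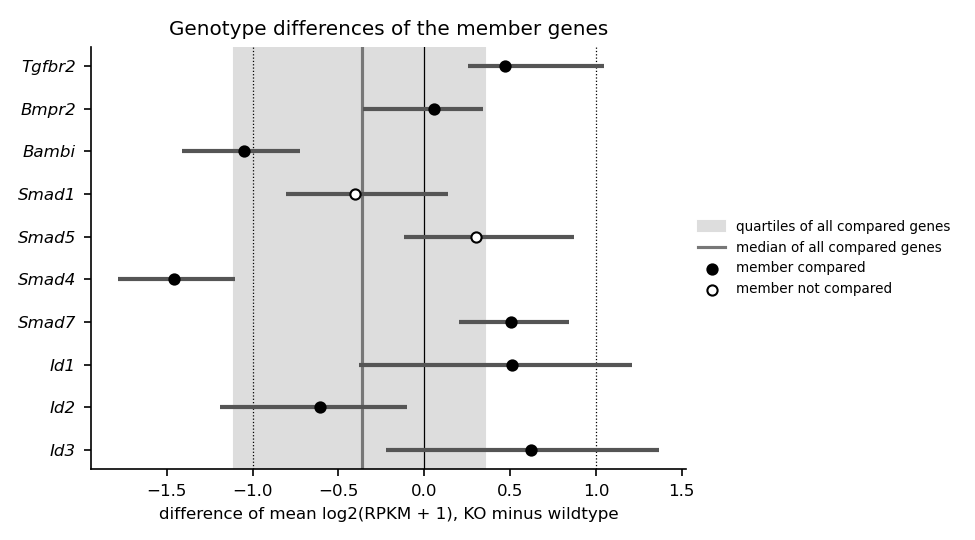
Difference of mean log2(RPKM + 1), KO minus wildtype, for each gene (points; open where the gene was detected in too few cells to be compared), with bars for the range when each of the 21 cells is left out in turn. The grey band and line give the quartiles, -1.11 and 0.35, and the median, -0.36, of all 3867 genes compared, and Smad4 at -1.46 is the gene furthest from 0.

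Other genes of the pathways, taken from named lists, were mostly too sparse to compare. Of 81 genes named, 61 were in the table and 21 were detected in enough cells. Of these 21, 10 lay lower in KO cells by 1 or more, 0 lay higher by 1 or more and 11 differed by less, with a median difference of -0.83. Among all genes compared 28.0% lay lower and 11.4% higher by as much. Without the 6 cells of few pre-HSC and endothelial markers, 27 were compared, and 10 lay lower by 1 or more, 6 higher and 11 by less, with a median of -0.26, while 20.4% of all genes then compared lay lower and 22.2% higher. Of the 10 lower with all cells, 7 were also lower by 1 or more without those 6. With all cells, Eng, Klf10, Gata2, Runx1 and Tcf3 were compared through wildtype cells alone, which favours a lower value in KO. Smad6 was compared through KO cells alone, and the rest of the 10 through both genotypes. Without the 6 cells, Bmp1 and Gata2, both lower, were compared through wildtype cells alone. There Smad2, Tgif1, Ppm1a, Cdkn1a and Hey1, all higher, were compared through KO cells alone. The part of marker content, of gene number and of the detection rule in these counts was not tested.

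Ligands were the sparsest group. All 7 in the table, of 17 named, were detected in too few cells to be compared. Bmp4, the BMP made in tissue beneath the aorta, was detected in 1 KO and 1 wildtype cell, at up to 20.8 RPKM in KO cells and 19.5 RPKM in wildtype cells. Tgfb1, the main TGF-beta of blood and endothelium, was also detected in 1 KO and 1 wildtype cell. Bmp1, a protease that takes part in activating ligands by cutting their inhibitors, was detected in 3 KO and 4 wildtype cells. It was the 1 ligand compared without the 6 cells of few markers, with a difference of -1.26.

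Of 9 further receptors and coreceptors in the table, 2 were compared. Tgfbr1, the type I receptor for TGF-beta, was detected in 6 KO and 4 wildtype cells, with a difference of 0.15. Eng, the endothelial coreceptor endoglin, was detected in 5 KO and 8 wildtype cells, with a difference of -2.09, or -1.63 without the 6 cells of few markers. The type I BMP receptor Bmpr1a was detected in 4 KO cells and 0 wildtype cells, where its highest value was 0.864 RPKM. Its relative Bmpr1b stayed under 1 RPKM in every cell.

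Among Smads and their cofactors, 4 of 12 genes in the table were compared, and 3 of them lay lower in KO cells by 1 or more. They were Smad6, the BMP-induced inhibitory Smad, at -1.04, Skil, a repressor of Smad activity, at -1.12, and Crebbp, a histone acetyltransferase that serves Smads as coactivator, at -1.10. Smad6 was detected in 6 KO and 4 wildtype cells, so its mean was lower in KO while more KO cells held it. Without the 6 cells of few markers 6 genes of the list were compared, with 1 lower by 1 or more and 2 higher. Skil lay at -1.06, Crebbp at -0.99 and Smad6 at -0.46, while Tgif1, a corepressor of Smads, lay at 2.33 and Smad2, a transducer of TGF-beta signals, at 1.25. Tgif1 and Smad2 were compared there through KO cells alone, which favours a higher value in KO. Ski, the relative of Skil, differed by -0.10.

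The inhibitors held 4 compared genes of 16 in the table, none with a large difference. Without the 6 cells of few markers 6 were compared, of which 2 lay lower in KO cells by 1 or more and 1 higher, namely Ppm1a, a phosphatase that acts on Smads, at 1.11. Fkbp1a, which binds the type I receptor and keeps it inactive, was the most abundant, at 1 RPKM or more in every one of the 12 KO and 9 wildtype cells, with medians of 669 RPKM in KO cells and 468 RPKM in those of wildtype. Its difference was -0.72 on the mean log2 scale, opposite in sign to its medians, and 0.055 without the 6 cells of few markers. Fstl1, a secreted BMP antagonist, had a median of 122 RPKM in KO cells against 116 RPKM in wildtype cells. Ltbp1, which stores latent TGF-beta in the matrix, had a median of 9.70 RPKM in KO cells against 41.7 RPKM in wildtype cells. The differences of Fstl1 and Ltbp1 were -0.15 and -0.83 with all cells, and -1.13 and -1.55 without the 6.

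Of the further targets, 8 of 14 in the table were compared, with 5 lower in KO cells by 1 or more and a median difference of -1.57. They were Runx1 at -2.70, Gata2, a blood stem cell transcription factor, at -1.97, Cdkn1c, an imprinted cell cycle inhibitor, at -1.95, Tsc22d1, a TGF-beta-induced leucine zipper gene, at -1.72, and Klf10, an early TGF-beta response gene, at -1.42. When the 6 cells of few markers were left out 9 were compared, with 4 lower by 1 or more and 3 higher, and Klf10 lay at -0.96. The 3 higher were Hes1, Cdkn1a, a cell cycle inhibitor, at 1.63 and Hey1, a relative of Hes1, at 1.31. With all cells, Runx1, Gata2 and Klf10 were compared through wildtype cells alone, which favours a lower value in KO. Runx1 is also 1 of the 11 pre-HSC and endothelial markers. Runx1 and Gata2 stand in the first 24 rows of the table, ahead of its alphabetical order, and whether values there are in step with the gene names was not checked. Tsc22d1 was as abundant as the Id genes, with a median of 600 RPKM in KO cells against 560 RPKM in wildtype cells. Hes1, a Notch target that BMP signals also induce, lay at 0.53, or 1.88 without the 6 cells of few markers, and Atoh8, a BMP target of endothelium and liver, was listed at 0 in every cell. Ctgf, a classic TGF-beta target, was detected in 1 KO cell and in 0 wildtype cells.

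E proteins, which Id proteins bind, were present in part of the cells. Tcf12 was detected in 10 KO and 7 wildtype cells, with a difference of -0.53, Tcf4 in 6 KO and 4 wildtype cells, with a difference of 0.58, and Tcf3 in 5 KO and 5 wildtype cells, with a difference of -1.52. The median of Tcf12 was 4.94 RPKM in KO cells against 5.79 RPKM in wildtype cells. Tcf4 had a median of 0.636 RPKM in KO cells against 0.846 RPKM in wildtype cells, and Tcf3 one of 0.101 RPKM in KO cells against 14.2 RPKM in wildtype cells. With all cells used, these medians lay below those of the 3 Id genes in the same genotype.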

How the data were processed

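RNA of 22 single T1 pre-HSCs was read from the deposited table. Its deposited values are RPKM. The submitters' processing notes name Cufflinks 2.1.0 and build mm10. No source used here gives an aligner or annotation, or says how reads with several matches were handled. RPKM divides by each cell's total, so a few abundant genes lower all others, and depth cannot be recovered. Columns were matched to samples by cell number and to genotypes by the sample titles. The table of adult HSCs has no row for any member and was not used, and the methylation libraries were not analysed here.

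Wildtype cell 19 was left out. Each cell was correlated with the mean of the others in 30 stretches of 500 gene rows, as deposited and shifted by up to 5 rows. In 24 stretches cell 19 fitted best when shifted, and the other 21 cells never did. The first 24 rows were not checked. Differences are of mean log2(RPKM + 1) with a pseudocount of 1, KO minus wildtype, which understates changes of low genes. Cells of 1 group were not treated as replicates. The calculation was tested on simulated data, with shifts placed only in genes of high mean level and with limited spread. Such data are unlike the sparse members here, so the test does not cover them. Python 3.11.15, pandas 2.3.3 and scipy 1.17.1 were used.

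All members are named. From the lists, genes compared with a difference of 1 or more were to be named, at most 6 a list, along with the 5 genes most like the member detected in the most cells, where Id1 and Id3 tied; other list genes were chosen after their values were seen. The members and lists were chosen with earlier results of these data known. Alternatives changed the pseudocount (0.1 or 10), the scaling, the summary over cells, the filter and the cells used. Leaving out cells with at most 2 of 11 markers, alone (also for the lists) or with the KO cells of most genes, was added after seeing the data.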

Additional observations from a re-analysis of the deposited data

Results flagged for a closer look

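In the 9 wildtype cells, an end cell of 3 of the 10 members lay apart from its neighbour by more than Dixon's critical share of the range, 0.493, on the log2(RPKM + 1) scale. Chance flags about 1 in 20 groups when values are normally spread, which does not hold here. Of the 9 wildtype cells, Smad1 was listed at 0 in 6 and Tgfbr2 in 5, so 1 cell with a high value is readily flagged. The 12 KO cells were not examined in this way. Id3 in wildtype cell 20 was the lowest, at 0.81 on that scale or 0.755 RPKM. Smad1 in the same cell was the highest, at 5.15 or 34.5 RPKM. Tgfbr2 in wildtype cell 17 was the highest, at 5.45 or 42.8 RPKM.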

How the results depend on the processing

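The count of members with a large difference, 2 of 8, and their median, 0.27, depended on the settings. Without the cells of few markers the count was 3 of 9. The count was 4 with a pseudocount of 0.1, 0 with a pseudocount of 10, 5 when each cell was shifted to an equal median, 5 with medians over cells, 1 with the filter at 5 RPKM, 1 with wildtype cell 19, 5 when only KO cells with at least as many detected genes as the median wildtype cell were kept, 6 over cells with Xist under 1 RPKM, and 6 without both the cells of few markers and the KO cells of most genes. The median was -1.56 in the last of these and, where 1 cell was left out, -0.17 to 0.40, with counts of 1 to 3. In those runs 7 or 8 members were compared, and 38.2 to 45.7% of all genes compared had a large difference. The count was 1 without KO cell 2, 7, 8 or 11 or wildtype cell 15 or 20. It was 3 without KO cell 3 or 10 or wildtype cell 13, 16, 17 or 21, and 2 without any other 1 cell. The shift to an equal median moved the median of all genes compared to 0.79, and under it the difference of Bambi was 0.11. Bambi was at 0.93 with the 4 KO cells of most genes. The cause was not tested. Smad4 lay lower in KO under all 35 alternatives, from -2.68 to -0.10. Over the same 35, Bambi kept its sign in 33, Smad7 in 34, Id3 in 33, Id1 in 31, Id2 in 31, Tgfbr2 in 33, Smad5 in 33, Smad1 in 31 and Bmpr2 in 26. The 35 include the runs that changed only the filter, which cannot alter the difference of a single gene. A further 21 each left out 1 cell and share most cells, so these tallies are not counts of separate checks. No paired analysis was possible because KO and wildtype cells share no cell numbers and no label pairs them. Depth is unknown, so a gene near 0 in a cell may have been missed.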
